A study of Sus scrofa with 6 samples.

Results

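The lactate dehydrogenase genes LDHA and LDHB were described in 6 whole pig embryos at embryonic day 21. LDHA and both annotated LDHB loci, 1 on chromosome 5 and 1 on chromosome 2, made up 3 of the 30139 genes listed, and all 3 were among the 1652 genes tested. These genes were selected on their levels in the same comparison of parthenogenetic with control embryos, so their levels and fold changes are given as a description, with no test. LDHB of chromosome 5 was lower in all 3 parthenogenetic embryos than in any control embryo, at 753 against 1071 TPM (a read share scaled to a fixed sum and corrected for transcript length). LDHA was alike in 5 embryos and stood out in 1 parthenogenetic embryo, PA2. The LDHB entry of chromosome 2 was listed at 0 in the parthenogenetic embryos, and in 2 of these 3 counts lay instead on an entry for the same stretch of the genome.

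Lactate dehydrogenase interconverts pyruvate and lactate and thereby renews the NAD that glycolysis consumes. It is a tetramer of subunits encoded mainly by LDHA, the form that prevails in skeletal muscle and in tissue short of oxygen, and LDHB, the form that prevails in heart and other oxidative tissue. LDHA is a well-known target of the hypoxia-inducible factors, and LDHC is a form of the male germ line.

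The 3 parthenogenetic embryos (PA) came from oocytes matured in vitro, activated by an electric pulse without sperm and placed in surrogate gilts, so that both of their genome copies are maternal. The 3 control embryos (CN) were untreated and, by the methods of the study, came from natural mating. The labels give the Landrace x Yorkshire x Duroc cross for all 6 embryos. By the methods of the study the oocytes behind the PA embryos came from that cross, whereas the CN embryos came from Landrace x Yorkshire gilts mated with boars of a breed that is not named. Each library was made from 1 whole embryo, so every tissue of the embryo contributed RNA. In such bulk samples fewer cells of a type and less RNA per cell cannot be told apart. By the methods of the study each group was recovered from 2 gilts, so at least 2 of the 3 embryos of a group shared a gilt. Which embryos did is not stated, so p-values below measure the spread between these embryos, and a difference between gilts and a difference between groups cannot be told apart.

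The summed estimated counts were 3100284 to 3573406 per embryo, and 99.6% to 99.7% of them lay on transcripts of chromosome 2, although transcripts of the whole genome were listed. TPM values are therefore relative almost entirely to chromosome 2. Chromosome 5 held 0.0603% to 0.0946% of the counts. The level of LDHB relative to LDHA applies within this set of reads.

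LDHA lay on the minus strand of chromosome 2 (Sscrofa11.1, chr2:40814163-40827284) with 5 annotated transcripts, of which NM_001172363.2 had 8 exons and 1683 bases. LDHB of chromosome 5 lay on the plus strand (chr5:51810932-51831218), also with 8 exons, and had 2 transcripts, XM_013988347.2 and XM_021092252.1, that differed in their first exon. LDHB of chromosome 2 lay on the minus strand (chr2:12988754-12990033) as a single exon of 1280 bases, NM_001113287.1. The annotation placed a pseudogene entry, LOC407246, on the same strand over the same bases and 2 further ones (chr2:12988754-12990035), so that every base of the LDHB entry was also a base of LOC407246.

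The chromosome 2 locus read as a spliced copy of the chromosome 5 gene. Over 1282 aligned bases, 1271 were identical to XM_013988347.2, an identity of 99.1%. All 7 exon junctions of the chromosome 5 transcript were found on chromosome 2 as unbroken sequence, whereas introns of 1275 to 6795 bases separated those exons on chromosome 5. The windows across the junction of exons 2 and 3 and of exons 7 and 8 are shown because no base within them tells the loci apart. Each has 30 bases, centred on the junction. On chromosome 2 the first lies at chr2:12989811-12989840 and the second at chr2:12989103-12989132, both on the minus strand.

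LDHB exons 2 and 3, chromosome 5 spliced: agcattctgggaaagtctctgacggatgag
LDHB exons 2 and 3, chromosome 2 locus: agcattctgggaaagtctctgacggatgag
LDHB exons 7 and 8, chromosome 5 spliced: tcaacaatggtgcagggcatgtatggcatt
LDHB exons 7 and 8, chromosome 2 locus: tcaacaatggtgcagggcatgtatggcatt

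The loci differed at 11 aligned bases in all, 8 of them in the coding sequence and 2 of those changing the amino acid. The longest stretch without any difference was 260 bases. Both positions that change the amino acid, and a pair of silent ones that lie close together, are shown in windows read along the plus strand of chromosome 5, with the bases that differ in capitals. The differing base of the first window lies at base 51814077 of chromosome 5 and at base 12989926 of chromosome 2. That of the second window lies at base 51821032 of chromosome 5 and at base 12989766 of chromosome 2. The last window holds differences at bases 51829016 and 51829022 of chromosome 5.

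First window, LDHB chromosome 5: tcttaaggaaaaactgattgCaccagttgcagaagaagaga
First window, LDHB chromosome 2: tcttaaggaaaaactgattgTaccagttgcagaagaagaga
Second window, LDHB chromosome 5: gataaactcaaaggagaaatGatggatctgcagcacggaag
Second window, LDHB chromosome 2: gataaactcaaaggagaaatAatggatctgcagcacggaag
Last window, LDHB chromosome 5: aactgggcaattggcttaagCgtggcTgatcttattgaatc
Last window, LDHB chromosome 2: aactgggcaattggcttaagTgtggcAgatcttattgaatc

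The reading frame of the chromosome 2 entry held 334 codons with 0 stops inside it, and 332 of the 334 amino acids it encodes were those of the chromosome 5 gene. LDHA differed far more from both. Its frame of 332 codons shared 75.0% of its amino acids with the chromosome 2 locus and 75.3% with XM_021092252.1, and no stretch of 31 bases was common to NM_001172363.2 and either XM_013988347.2 or the chromosome 2 locus. Counts of LDHA and LDHB were thus separable, whereas those of the LDHB loci rested on few bases.

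LDHA, the subunit known from skeletal muscle, had the higher level within this set of reads, which lay almost entirely on chromosome 2. Whether LDHB of chromosome 5 was counted in full was not tested. LDHA was the 41st of the 2675 genes listed on chromosome 2 by mean TPM. Its level was 2688, 2612 and 2906 TPM in CN1, CN2 and CN3, and 2536, 4385 and 2541 TPM in PA1, PA2 and PA3. PA1 and PA3 lay just below the lowest control, PA2 lay above every other embryo, and the groups overlapped. The mean was 2735 ± 152 TPM in CN and 3154 ± 1066 TPM in PA (SD, n = 3), a ratio of 1.15.

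The reads behind these levels were plentiful, with 8496, 7104 and 8623 estimated counts in CN and 8554, 13835 and 7816 in PA. After normalization to CPM, the count share of a library corrected for library scaling and transcript length, the controls had 2664, 2205 and 2606 and the parthenogenetic embryos 2620, 4131 and 2219. The log2 fold change, PA over CN, was 0.26 with a standard error of 0.21. Without PA2 it was -0.03, so the direction of the LDHA difference rested on that embryo.

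**Figure D1:**
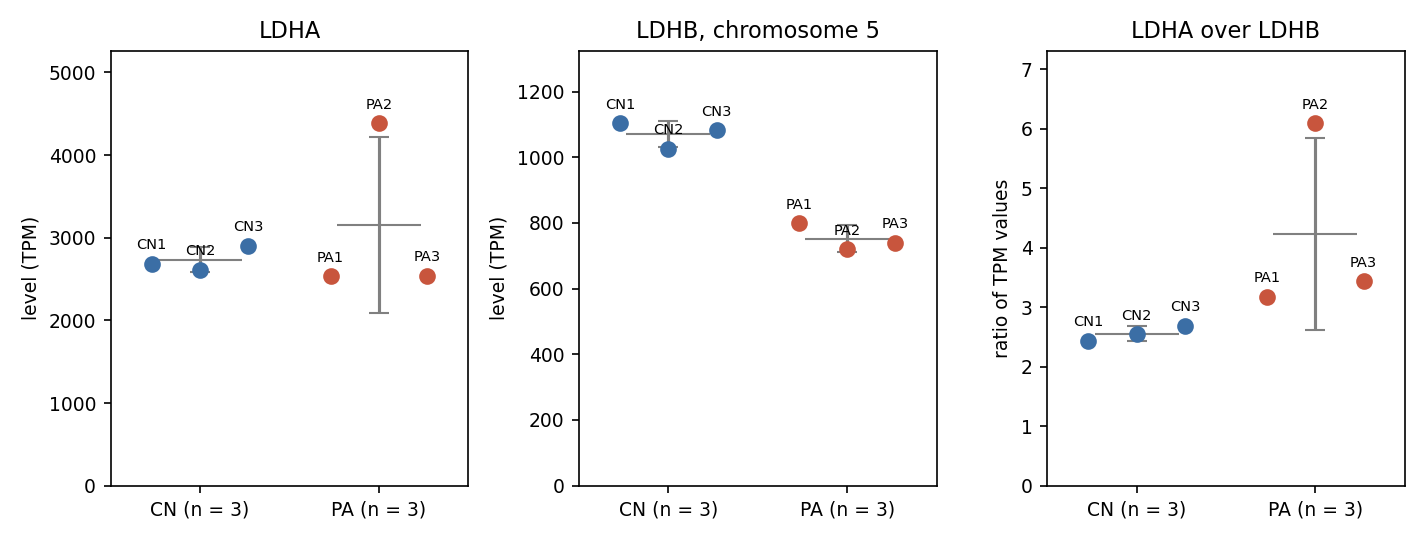
Levels of LDHA and of LDHB of chromosome 5 in TPM, and the ratio of LDHA to LDHB of chromosome 5, in each CN and PA embryo (points), with the group mean and SD (grey lines, n = 3). LDHB separates the groups, with CN from 1027 to 1104 TPM and PA from 719 to 799 TPM, whereas for LDHA only PA2, at 4385 TPM, stands apart.

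Nearly all of the LDHA level came from 1 transcript. NM_001172363.2 held 98.9% to 99.6% of the LDHA TPM in every embryo. Its level was 2675, 2594 and 2893 TPM in CN and 2508, 4363 and 2531 TPM in PA, so the high value of PA2 was that of the leading transcript. The other 4 transcripts, which share most of their bases with it, had at most 39.3 estimated counts in any embryo, and XM_021081651.1 and XM_021081659.1 were listed at 0 in 2 embryos each.

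PA2 was also high for a few other genes. A normalized CPM at least 1.5 times that of the next highest embryo was found in PA2 for 10 of the 1652 genes, 0.605%, against 5 to 14 genes in the other embryos. LDHA, at 1.55 times the next embryo, was the only 1 of those 10 genes with at least 1000 normalized CPM in PA2. The highest ratios in PA2 belonged to LEAP2, which encodes a peptide hormone of liver and gut, at 4.64 times, and ADM, which encodes the vasodilator adrenomedullin and is a known target of the hypoxia-inducible factors, at 2.41 times. ADM was at 54.5, 54.8 and 55.6 TPM in CN and at 61.6, 163 and 57.4 TPM in PA, so PA2 was apart for ADM as it was for LDHA. The other 4 tested genes of the hypoxia list were not highest in PA2, where P4HA2 was at 369 TPM, VEGFB at 783 TPM, SIRT3 at 205 TPM, the lowest of the 6 embryos, and HIF3A at 5.31 TPM.

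The tested genes whose log2 normalized CPM was most like that of LDHA over the 6 embryos were DAPK3, ADM, THBS4, SQSTM1 and LEAP2, with Pearson's r from 0.94 to 0.99. DAPK3, a protein kinase, had r = 0.99, and 0.92 without PA2. SQSTM1, the autophagy receptor p62, had r = 0.96, and 0.81 without PA2. For LEAP2 the coefficient fell from 0.94 to 0.39 without PA2. These coefficients describe 6 points that share library and scaling, and PA2 was the highest embryo for all 5 genes.

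**Figure D2:**
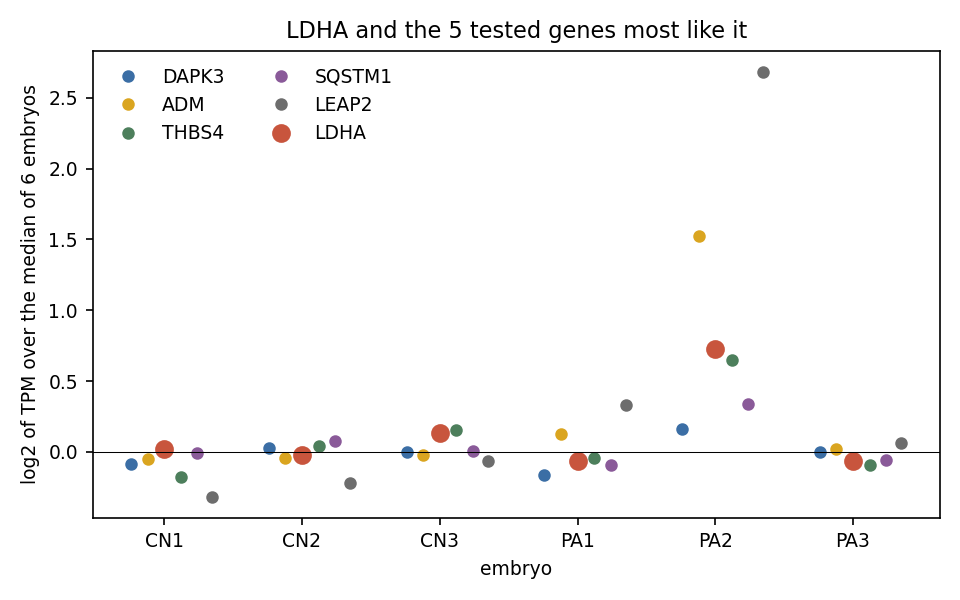
Log2 of the TPM of LDHA and of the 5 tested genes most like it, each relative to its own median over the 6 embryos (y axis), for each embryo (x axis; points are shifted sideways for legibility). All 6 genes are highest in PA2, with LEAP2 and ADM farther above their medians than LDHA.

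LDHB of chromosome 5, the subunit known from heart, showed the opposite picture, with little spread inside the groups. Its level was 1104, 1027 and 1082 TPM in CN and 799, 719 and 739 TPM in PA. All 3 PA levels were thus under the lowest CN level. The mean was 1071 ± 39.7 TPM in CN and 753 ± 41.6 TPM in PA (SD, n = 3), a ratio of 0.703.

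The counts gave the same order, though with a narrower gap. There were 2739, 2190 and 2521 estimated counts in CN and 2117, 1781 and 1785 in PA. Normalized values of 859, 680 and 762 CPM in CN stood against 648, 532 and 507 CPM in PA, and the log2 fold change was -0.45 with a standard error of 0.12. Of all 1652 tested genes, 14.3% were lower in every PA embryo than in every CN embryo, and LDHB was chosen with this contrast known, so nothing is read from its place among them. Leaving out each embryo in turn gave log2 fold changes from -0.54 to -0.36.

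Both transcripts of this gene were lower in PA on average. XM_013988347.2 was at 783, 543 and 640 TPM in CN and at 595, 415 and 436 TPM in PA. XM_021092252.1 was at 320, 483 and 442 TPM in CN and at 204, 304 and 303 TPM in PA. The PA and CN values of XM_013988347.2 overlapped, whereas those of XM_021092252.1 did not. The share of XM_013988347.2 was 52.9% to 71.0% of the gene's TPM in CN and 57.7% to 74.4% in PA, so the balance of first exons overlapped between the groups.

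Within this set of reads LDHA exceeded LDHB of chromosome 5 in every embryo. The ratio of their TPM values was 2.44, 2.54 and 2.69 in CN and 3.17, 6.10 and 3.44 in PA. All PA ratios lay above all CN ratios. In PA1 and PA3 the LDHA TPM lay below the controls, although their normalized CPM lay within the range of the controls, and LDHB was lower on both scales. In PA2 LDHA was higher as well. The summed level of LDHA and both LDHB loci was 3815 ± 174 TPM in CN and 3907 ± 1038 TPM in PA (SD, n = 3).

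The counts of LDHB were unusual for a gene of chromosome 5. It held 88.7% of all counts on that chromosome and had the most estimated counts, not corrected for length, of any annotated gene outside chromosome 2. Only 5 of 1454 genes of chromosome 5 reached a mean of 10 counts, and the next after LDHB was LOC102167067 with a mean of 53.8. Of the stretches of 31 bases in the LDHB transcripts, 71.1% also occurred in the sequence of chromosome 2. LOC100523526 on chromosome 1 came close to LDHB, with a mean of 2084 counts against 2189 and a share of 65.7%. LOC110261249 on chromosome 6 had a share of 75.1% at a mean of 184 counts. Over the 104 genes outside chromosome 2 with a mean of 10 counts or more the median share was 6.97%. Among the 1449 genes of chromosome 5 with fewer than 10 counts the median share was 0% and the 90th percentile 2.22%, and 0 of them reached the share of LDHB. Whether the shared sequence set which LDHB reads entered the deposited tables was not tested.

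**Figure D3:**
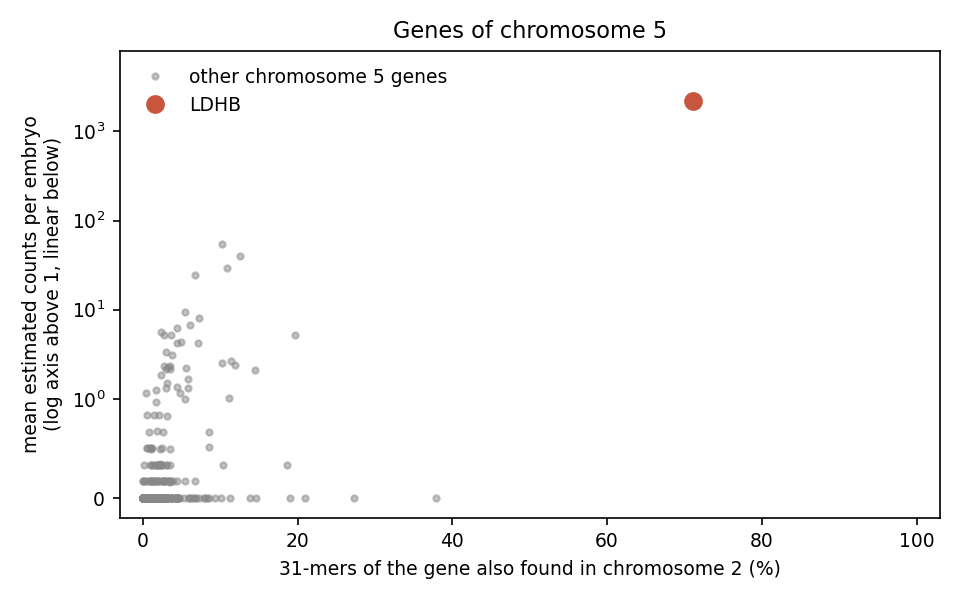
For each gene of chromosome 5, the share of its stretches of 31 bases that also occur in the sequence of chromosome 2 (x axis, percent) and its mean estimated count over the 6 embryos (y axis, logarithmic above 1 and linear below). LDHB, at 71.1% and a mean of 2189 counts, lies apart from all other genes of the chromosome.

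The intronless LDHB locus of chromosome 2 carried few counts. Its LDHB entry had 26.4, 16.4 and 14.5 estimated counts in CN and 0 in each PA embryo, which is 11.5, 8.25 and 6.67 TPM in CN. The entry passed the expression filter through the CN embryos alone. No fold is read from it, since the counts of this stretch can be assigned to either of the overlapping entries. Fitted values of the entry are listed only with the alternatives of the processing.

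The overlapping LOC407246 entry showed the reverse pattern. It had 0 counts in each CN embryo and 30.3, 22.2 and 0 in PA1, PA2 and PA3. Because the LDHB entry is contained in it without a difference, no read inside the LDHB entry can tell these entries apart. Summed, the locus had 26.4, 16.4 and 14.5 counts in CN and 30.3, 22.2 and 0 in PA. The groups then overlapped, with PA1 the highest embryo and PA3 the lowest, and the log2 fold change of the sum, formed after the data were seen, was -0.15 with a standard error of 0.82.

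The locus took a small part of the LDHB signal under either reading. Its LDHB entry held 0.301%, 0.226% and 0.167% of the summed TPM of LDHA and LDHB in CN. Both entries together held 0.571% to 0.955% of all LDHB counts in CN, and 1.41%, 1.23% and 0% in PA1, PA2 and PA3. Adding them to LDHB of chromosome 5 left its log2 fold change at -0.44, with a standard error of 0.13.

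**Figure D4:**
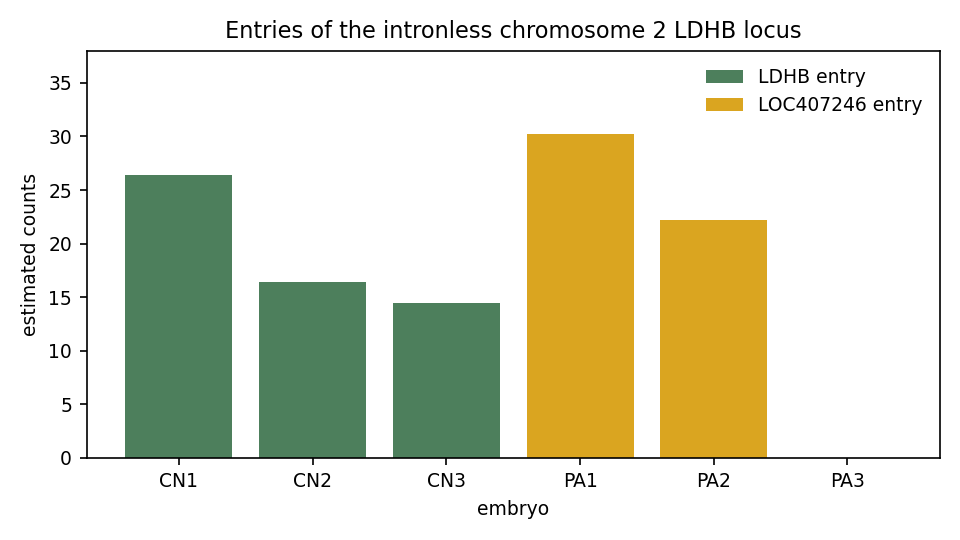
Estimated counts of the overlapping entries of the intronless LDHB locus on chromosome 2, LDHB (green) and LOC407246 (yellow), for each embryo. Counts lie on the LDHB entry in CN and on LOC407246 in PA1 and PA2, with 0 in PA3, and the sums of the groups overlap.

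The tested genes most like the LDHB entry of chromosome 2 were BBOX1, MISP3, LOC100737764, EPS8L2 and CTSD, with r from 0.99 to 1.00 over the 6 embryos. As the entry is at 0 in every PA embryo, this measure finds genes that were lower in PA with little spread inside the groups. In PA1 and PA2 counts of the same stretch lay on LOC407246, so the coefficients are those of the entry and not of the summed locus. BBOX1, the last enzyme of carnitine synthesis, was at 143, 145 and 131 TPM in CN and 22.1, 18.9 and 24.2 TPM in PA. CTSD, the lysosomal protease cathepsin D, was at 3607, 4237 and 3496 TPM in CN and 1337, 1246 and 1275 TPM in PA.

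For LDHB of chromosome 5, looked up after its levels were seen, the most similar genes were LOC100524239, ZDHHC13, ELMO1, NDUFA2 and PDHX, with r from 0.97 to 1.00. Of these, ELMO1 lies on chromosome 18 and was near the floor, at 0.123 to 0.296 TPM. NDUFA2, a subunit of complex I of the respiratory chain, was at 978, 777 and 767 TPM in CN and 547, 485 and 464 TPM in PA. PDHX, the component that anchors dihydrolipoamide dehydrogenase to the pyruvate dehydrogenase complex, was at 297, 285 and 278 TPM in CN and 205, 208 and 215 TPM in PA. Both were picked for following a gene that itself separates the groups, so their own separation comes with the choice and is a description only.

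The other lactate dehydrogenase genes had few counts or did not pass the test. LDHD, which acts on D-lactate and does not lie on chromosome 2, was listed at 0 in every embryo, which in these tables says nothing about its expression. LDHC, the germ-line form, lies 4049 bases from LDHA on the same strand and had 5, 3 and 2 counts in CN and 2, 1 and 0 in PA, too few for the test. UEVLD, which carries a lactate/malate dehydrogenase domain, was at 105, 115 and 117 TPM in CN and 84.1, 93.6 and 128 TPM in PA, with a log2 fold change of -0.10 and an edgeR adjusted p = 0.670.

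Genes beside the members were looked up as well. Of 15 other genes within 250 kb of LDHA, 10 were tested by edgeR and 0 had an adjusted p below 0.05, nor did any at an unadjusted p below 0.05 or by DESeq2. Of all 1652 genes 6.42%, 20.9% and 10.5% passed by these criteria in either direction, so a count of 0 among 10 genes is no result about the region. TSG101 and GTF2H1, genes of endosomal sorting and of transcription factor TFIIH, had log2 fold changes of 0.01 and -0.08. HPS5, of lysosome-related organelles, was at 0.00, and SPTY2D1 and SAAL1 at 0.07 and 0.16. The serum amyloid genes SAA2, SAA3 and SAA4, close copies of one another whose reads may be split between them, and the serotonin synthesis gene TPH1 had wide errors, with log2 fold changes of -0.60, 0.87, -2.05 and 0.49 and standard errors of 0.40 to 1.04. Around the chromosome 2 LDHB locus 3 of 26 genes were tested, namely CTNND1 (0.07), SELENOH (0.02) and TMX2 (-0.43), and 0 passed the edgeR test. At an unadjusted p below 0.05 and by DESeq2, 1 of the 3 did each time.

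The pathway around lactate dehydrogenase could be followed mainly where its genes lie on chromosome 2. Among its tested genes only PFKFB1, on chromosome X, and HIF3A, on chromosome 6, lie elsewhere. Of 119 annotated genes in the lists of lactate dehydrogenase relatives, glycolysis, pyruvate and lactate handling, hexose entry with side branches, and hypoxia response, 16 were tested. In 25 of the 27 glycolysis genes, 27 of the 34 pyruvate and lactate genes, 23 of the 29 hexose genes and 21 of the 26 hypoxia genes, every embryo was at 0 counts. Genes that every cell uses, such as GAPDH, ALDOA and PKM of glycolysis, were among those listed at 0, as were HIF1A, the lactate transporter SLC16A1 and the glucose transporter SLC2A1. A statement about glycolysis as a whole cannot be drawn from these tables.

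Of the 16 tested genes, 2 fell in PA, and over all 1652 genes 4.42% were called lower. At an unadjusted p below 0.05, 5 of the 16 were lower, and 4 were lower by DESeq2, where 11.9% and 6.90% of all genes were. By edgeR 0 of the 16 rose, where 2.00% of all genes were called higher, and 0 of them were higher at an unadjusted p below 0.05 or by DESeq2. The median log2 fold change was -0.13 over the 16 genes and 0.01 over all genes tested. In normalized CPM, the PA values of 5 of the 16 lay entirely under the CN values, where 14.3% of all genes did, and those of 1, PFKFB1, lay entirely over them, where 13.8% did. In TPM the groups overlapped for PFKFB1.

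SLC5A12, a sodium-coupled transporter that takes lactate and other monocarboxylates into kidney and gut cells, fell most. It was at 83.0, 127 and 115 TPM in CN and 22.4, 12.1 and 37.8 TPM in PA. The groups did not overlap, and the log2 fold change was -2.11 with a standard error of 0.32 (edgeR, adjusted p = 0.00640). Without the expression filter the adjusted p was 0.0967, and over 13 alternatives it ranged from 1.36e-10 to 0.0967.

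The remaining genes of pyruvate and lactate handling had smaller differences and did not pass by edgeR, though some did under other settings. BSG, the chaperone of the lactate transporters, was at 3398, 3820 and 3768 TPM in CN and 3359, 2515 and 3053 TPM in PA, with a log2 fold change of -0.23 (edgeR, adjusted p = 0.387). PC, pyruvate carboxylase, had a log2 fold change of -0.41 (edgeR, adjusted p = 0.359), and PDHX one of -0.40 (edgeR, adjusted p = 0.0602). Over the alternatives the adjusted p of PDHX ranged from 0.0169 with DESeq2 to 0.199 without PA2, and BSG and PC passed without PA1. HK3, a hexokinase of white blood cells and the single glycolysis enzyme tested, was at 30.1, 53.0 and 37.7 TPM in CN and 21.3, 28.2 and 17.9 TPM in PA, with a log2 fold change of -0.75 (edgeR, adjusted p = 0.103). Its adjusted p was 0.0302 with DESeq2 and ranged from 0.00522 without the expression filter to 0.293 without CN2.

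PYGM, the glycogen phosphorylase of skeletal muscle, was the other gene that fell. It was at 71.4, 90.9 and 70.6 TPM in CN and 36.0, 39.5 and 33.5 TPM in PA, without overlap, and its log2 fold change was -1.02 with a standard error of 0.14 (edgeR, adjusted p = 0.00397). PGLS and TALDO1 of the pentose phosphate pathway had log2 fold changes of 0.00 and -0.04, TKFC, which phosphorylates glyceraldehyde and dihydroxyacetone, -0.13, and PFKFB1, a liver form of the enzyme that sets fructose 2,6-bisphosphate, 0.25. None of these 4 passed the test.

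In the hypoxia list 0 of 5 tested genes passed by edgeR or DESeq2, and 1, VEGFB, had an unadjusted p below 0.05 by edgeR. With 6.42% of all genes called by edgeR in either direction, 0 of 5 says nothing particular about the list. VEGFB, a vascular growth factor, was lower in every PA embryo with a log2 fold change of -0.26 (edgeR, adjusted p = 0.115). ADM had a log2 fold change of 0.83 with a standard error of 0.38 that rested on PA2. P4HA2, which hydroxylates collagen, SIRT3, a mitochondrial deacetylase, and HIF3A, of the hypoxia-inducible factors themselves, lay between -0.12 and 0.14.

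**Figure D5:**
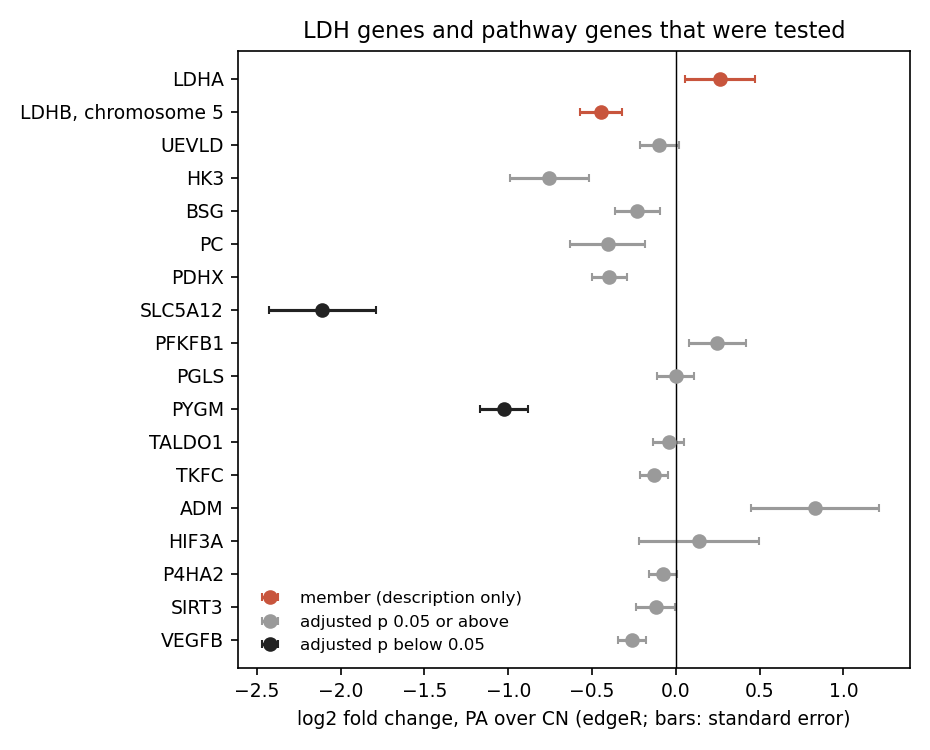
Log2 fold change, PA over CN, with its standard error (x axis), of LDHA and LDHB of chromosome 5 and of the 16 tested genes of the pathway lists. SLC5A12 and PYGM, in black, have an adjusted p below 0.05 by edgeR, and the others lie between -0.75 and 0.83.

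Beside LDHB of chromosome 5 and PYGM, some muscle markers were also lower in PA. Of 5 tested skeletal muscle markers, 4 were lower in every PA embryo in normalized CPM, where 14.3% of all genes were, and 1, TNNI2, passed the test and fell, where 4.42% of all genes did (log2 fold change -1.34, edgeR adjusted p = 0.00163). Their summed level over all 11 listed markers was 881 to 996 TPM in CN and 481 to 581 TPM in PA, with 6 of the 11, MYOG and ACTA1 among them, listed at 0. The other 4 did not pass by edgeR, while 4 of the 5 were lower at an unadjusted p below 0.05 and 2 were lower by DESeq2, where 11.9% and 6.90% of all genes were. Of 2 tested cardiac markers 1, MYBPC3, fell (log2 fold change -0.99, edgeR adjusted p = 0.00659), the other, MEF2C, was at -0.04, and the summed level of the list overlapped between groups, at 438 to 640 TPM in CN and 323 to 455 TPM in PA, with 5 markers, TNNT2 and MYH7 among them, listed at 0.

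Of 3 tested erythroid markers 0 passed by edgeR, 2 were lower at an unadjusted p below 0.05 and 1 was lower by DESeq2. Of all genes tested 4.42%, 11.9% and 6.90% were lower by these criteria, and 3 genes are too few to read a share from. Their summed level was 260 to 441 TPM in CN and 205 to 261 TPM in PA, with HBB, GATA1 and 3 more listed at 0. Trophoblast markers summed to at most 0.535 TPM in any embryo, but 1 of the 9 lies on chromosome 2 and 0 were tested, so this sum does not bear on the presence of trophoblast. The uterine gland marker ACP5, also a gene of osteoclasts and macrophages, was higher in every PA embryo, where 13.8% of all genes were in normalized CPM. Its log2 fold change was 1.12 (edgeR, adjusted p = 0.0599). At an unadjusted p below 0.05 and by DESeq2 it was higher, where 9.08% and 3.57% of all genes were. The part of these cell types in the levels of LDHB, PYGM and LDHA was not tested.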

How the data were processed

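Whole-embryo RNA libraries were polyA-selected and unstranded. The authors quantified reads with Salmon 1.3.0 against the pig transcriptome and deposited, for each transcript, estimated counts, effective lengths and TPM values. Of 81496 transcripts, 81457 were joined to genes through the annotation of Sscrofa11.1 (NCBI release 106), and RefSeq sequences were read from that genome. Estimated counts were summed per locus, rounded and tested with edgeR 4.0.16 in R 4.3.3 (quasi-likelihood test, TMM factors, transcript length offset, filterByExpr with minimum count 10 and total 15, Benjamini-Hochberg adjustment, threshold 0.05). Standard errors are the size of the log2 fold change over the root of its F statistic. DESeq2 1.42.0 was an alternative. The procedure was tested on simulated data. No library pair of a group agreed within sampling noise. Members and gene lists were chosen with earlier results of these data known. Named were the members with their transcripts, tested genes within 250 kb of the chromosome 2 members, the 5 genes most correlated with each, and list genes that passed or were among the 5 most abundant tested of their list. At these depths 3 counts are 0.839 to 0.968 CPM, for counting error alone.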

Additional observations from a re-analysis of the deposited data

How the results depend on the processing

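The log2 fold change of LDHA was 0.26 and kept its direction under all alternatives except without PA replicate 2 (-0.0319). Leaving out each embryo gave -0.0319 to 0.44 for LDHA, 0.928 to 1.27 for its TPM ratio, and -0.54 to -0.36 for LDHB of chromosome 5. With the replicate block these were 0.21 for LDHA and -0.45 for LDHB of chromosome 5. Same-numbered embryos correlated in their deviations at 0.297, 0.146 and 0.0662, and no source states a pairing. The value of the LDHB entry of chromosome 2 was -7.27 in edgeR, where it is set by the prior count, and -6.73 in DESeq2. This value is not read as a difference between groups, however little it moves, since counts of this stretch can be assigned to either overlapping entry. It was -7.45 to -6.95 without each embryo, -7.26 with the replicate block, -0.15 with the overlapping entry added and 0.0922 with LDHA and both LDHB loci summed. Its TPM ratio was 0, or 0.0115 and 0.104 from geometric means with pseudocounts of 0.1 and 1. It could not be fitted with 10 counts required in every embryo. The number of pathway genes called was 2, 4 with DESeq2, 2 to 4 without each embryo (4 without PA replicate 1) and 3 with the replicate block. Among single pathway genes 1 call was lost, SLC5A12 without the expression filter, and 8 were gained under some alternative, for PDHX, HK3, BSG and PC, all lower in PA. PDHX passed with the replicate block (adjusted p = 0.0437 by edgeR), library totals (0.0262), no filter (0.0225) and DESeq2 (0.0169). The number called over all genes was 106, 196 without the expression filter, 173 with DESeq2, 111 with the replicate block and 44 to 142 without each embryo, with 44 without CN replicate 2, 58 without CN replicate 3 or PA replicate 2, and 65 without PA replicate 3. Outside these values the members and both numbers of calls kept their direction and stayed within the spread between embryos or within 1.5 times. The alternatives for LDHB of chromosome 5 and the sum of overlapping entries were added after the data were seen. Few counts limit the chromosome 2 locus.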
